A study of Mus musculus with 10 samples.

Results

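The expression of 10 secreted or inducible mediators of inflammation was followed in mouse mammary tumours: the proinflammatory cytokines Tnf, Il1a and Il1b, the IL6-family cytokines Il6, Il11 and Lif, the colony-stimulating factors Csf1, Csf2 and Csf3, and Ptgs2, the inducible enzyme of prostaglandin synthesis. They were taken by gene name from the deposited table, and all 10 names matched 1 row each among 37882 genes. The tumours grew orthotopically, in FVB/N hosts with no genetic change named in the labels, from the mouse breast cancer line MCa-M3C. TMA-ARB animals (5 libraries, replicates 6 to 10) received valsartan in the TMA-ARB form at 40 mg/kg, injected retro-orbitally once a day over 6 days. Control animals (5 libraries, replicates 1 to 5) were injected with the same volume of PBS. Valsartan blocks the type of angiotensin II receptor that raises blood pressure, and both groups started from tumours near 100 mm3. The labels used here do not state the animals' age, and all tumours came from a single cell line. They also do not say whether each library came from its own animal, so the spread behind each p-value is that between libraries and may be technical.

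TNF and the IL1 proteins are early alarm cytokines: they bind receptors on many cell types and switch on the transcription factors NF-kB and AP-1, which in turn raise the transcription of other cytokines. IL6, IL11 and LIF signal through a shared receptor chain, gp130, to the transcription factor STAT3, while CSF1, CSF2 and CSF3 direct the growth and survival of macrophages, mixed myeloid cells and neutrophils. PTGS2, also called COX2, converts arachidonic acid to the precursor of prostaglandins and is itself induced by IL1 and TNF. In solid tumours these mediators come from tumour cells, fibroblasts and infiltrating myeloid cells, and bulk RNA does not separate these sources.

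RefSeq promoter windows (build GRCm38.p6, 250 bases before to 50 bases after the annotated start of transcription) were matched by symbol for 9 of the 10 genes. Those of 4 genes are printed because the results turn on them: Ptgs2 and Il1b, both abundant and far higher in a few tumours than in the rest, Lif, whose level moved with a library measure, and Il6, which carries the NF-kB and AP-1 letters but was near the detection limit. Capitals mark matches on either strand to the NF-kB consensus, the AP-1 motif TGANTCA, the cyclic AMP response half-site TGACG, the TATA box TATAAA and the E-box CACGTG.
Ptgs2, chr1:150099781-150100080, + strand: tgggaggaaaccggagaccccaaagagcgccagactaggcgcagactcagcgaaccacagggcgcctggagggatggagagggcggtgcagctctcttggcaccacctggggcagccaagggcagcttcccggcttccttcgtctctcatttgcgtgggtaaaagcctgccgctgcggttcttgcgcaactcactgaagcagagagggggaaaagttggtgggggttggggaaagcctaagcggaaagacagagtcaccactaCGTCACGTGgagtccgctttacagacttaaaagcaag
Il1b, chr2:129371090-129371389, - strand: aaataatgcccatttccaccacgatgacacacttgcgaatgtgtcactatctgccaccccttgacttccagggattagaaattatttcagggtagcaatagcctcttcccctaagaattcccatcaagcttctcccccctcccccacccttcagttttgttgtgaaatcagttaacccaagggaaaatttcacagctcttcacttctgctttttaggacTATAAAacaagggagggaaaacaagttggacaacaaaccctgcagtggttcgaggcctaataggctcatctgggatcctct
Lif, chr11:4257318-4257617, + strand: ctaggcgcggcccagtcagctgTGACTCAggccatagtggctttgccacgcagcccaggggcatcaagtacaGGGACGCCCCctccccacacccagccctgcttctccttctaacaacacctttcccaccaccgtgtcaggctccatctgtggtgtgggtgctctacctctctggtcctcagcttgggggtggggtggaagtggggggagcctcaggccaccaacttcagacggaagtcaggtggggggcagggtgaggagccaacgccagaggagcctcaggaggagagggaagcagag
Il6, chr5:30012864-30013163, + strand: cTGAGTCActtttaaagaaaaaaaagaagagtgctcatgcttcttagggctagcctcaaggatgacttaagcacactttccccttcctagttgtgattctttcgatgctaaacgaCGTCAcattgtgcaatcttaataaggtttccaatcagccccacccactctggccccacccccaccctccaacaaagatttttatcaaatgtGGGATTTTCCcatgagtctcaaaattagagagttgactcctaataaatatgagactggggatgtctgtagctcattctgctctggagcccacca
In the Ptgs2 window the half-site (on the opposite strand, from base 14 of the transcript) and the E-box (from base 17) overlap. They sit inside the transcript as RefSeq annotates it, and their place depends on that annotated start. The Il1b window held a TATA box 31 bases upstream of the start and no match to the other letters. The Lif window held an AP-1 match 228 bases and an NF-kB match 178 bases upstream. The Il6 window held an AP-1 match 249 bases, a half-site on the opposite strand 135 bases and an NF-kB match 44 bases upstream. Of the windows not printed, those of Tnf (29 bases upstream) and Il1a (32 bases) held a TATA box. Il1a (12 bases) held an AP-1 match, and Csf1 (154 bases, opposite strand) an NF-kB match. For Il11 the window from 4778092 to 4778391 held an AP-1 match (98 bases), and the other, from 4782808 to 4783107, held none of these letters. The start that GENCODE release M21 gives Il11, 4782859, lies in the window without a match. The Csf2 window (54249850 to 54250149, - strand) held none of these letters. It lies wholly upstream of the start that GENCODE release M21 gives Csf2, 54249667, and so does not cover the bases around that start. Such letters are common: of 32851 promoter windows, 8.46% held the NF-kB consensus, 7.81% the AP-1 motif, 20.8% the half-site, 13.6% the TATA box and 7.15% the E-box. A match is a description of the letters and not evidence of a site in use.

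Library totals ran from 12742953 to 15468825 counts in TMA-ARB tumours and from 14266136 to 16884621 counts in control tumours. Levels are given as CPM, counts scaled to a common library size with TMM factors. Mitochondrially encoded genes took a share of the counts that ran from 2.22% to 25.0% in TMA-ARB tumours and from 2.07% to 6.63% in control tumours (mean 10.5% in TMA-ARB and 4.19% in control, exact permutation test p = 0.143, two-sided, n = 5 each). Of the 6 epithelial markers checked against the label of a mammary tumour, Krt18 was clearly present (82.5 to 201 CPM in TMA-ARB tumours, 62.1 to 143 CPM in control tumours). Epcam was low (0.517 to 12.1 CPM in TMA-ARB tumours, 0.910 to 3.07 CPM in control tumours), and Krt5 was at 0 in 2 TMA-ARB and 3 control libraries. Of the 5 epithelial markers tested, 4 were higher and 1 lower in TMA-ARB tumours, with a median log2 fold change of 0.77, 0 called and 2 at an unadjusted p under 0.05. These were Krt8 (8.24 to 56.8 CPM in TMA-ARB tumours, 8.04 to 16.8 CPM in control tumours) and the scarce Krt14. The median is the value of Epcam, which was high in TMA-ARB replicate 6 alone (12.1 CPM). The other TMA-ARB libraries held 0.517 to 2.50 CPM of Epcam, and 3 TMA-ARB libraries lay under its control mean. In the comparison of the groups edgeR's quasi-likelihood test, run on 14063 genes, called 0 at the threshold, an adjusted p under 0.05 (457 at an unadjusted p under 0.05). DESeq2, which gave a p-value to 23897 genes because it was run without that filter on low counts, called 2 (826 at an unadjusted p under 0.05).

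None of the 10 mediators was called higher or lower under TMA-ARB. Of the 8 that passed the low-count filter, edgeR called 0, beside 0% of all genes tested, and 0 had an unadjusted p under 0.05, beside 3.25% of all genes tested. DESeq2 called 0 and put Il1b alone at an unadjusted p under 0.05 (0.0310). Log2 fold changes, TMA-ARB over control, were negative for 4 of the 8 (47.2% of all genes tested) and positive for 4, with a median of -0.02 beside 0.02 over all genes tested. The groups overlapped for all 10 genes, while 0.526% of all genes tested had groups that did not. The edgeR adjusted p was 0.997 for each of the 8, so only fold changes, standard errors and unadjusted p-values are given for single genes from here on. Exons of Il1a, Il1b and Csf2 overlap antisense transcripts over short stretches, and reads of both strands may have been counted there. In bulk samples fewer cells of a type and less RNA per cell cannot be told apart.

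**Figure D1:**
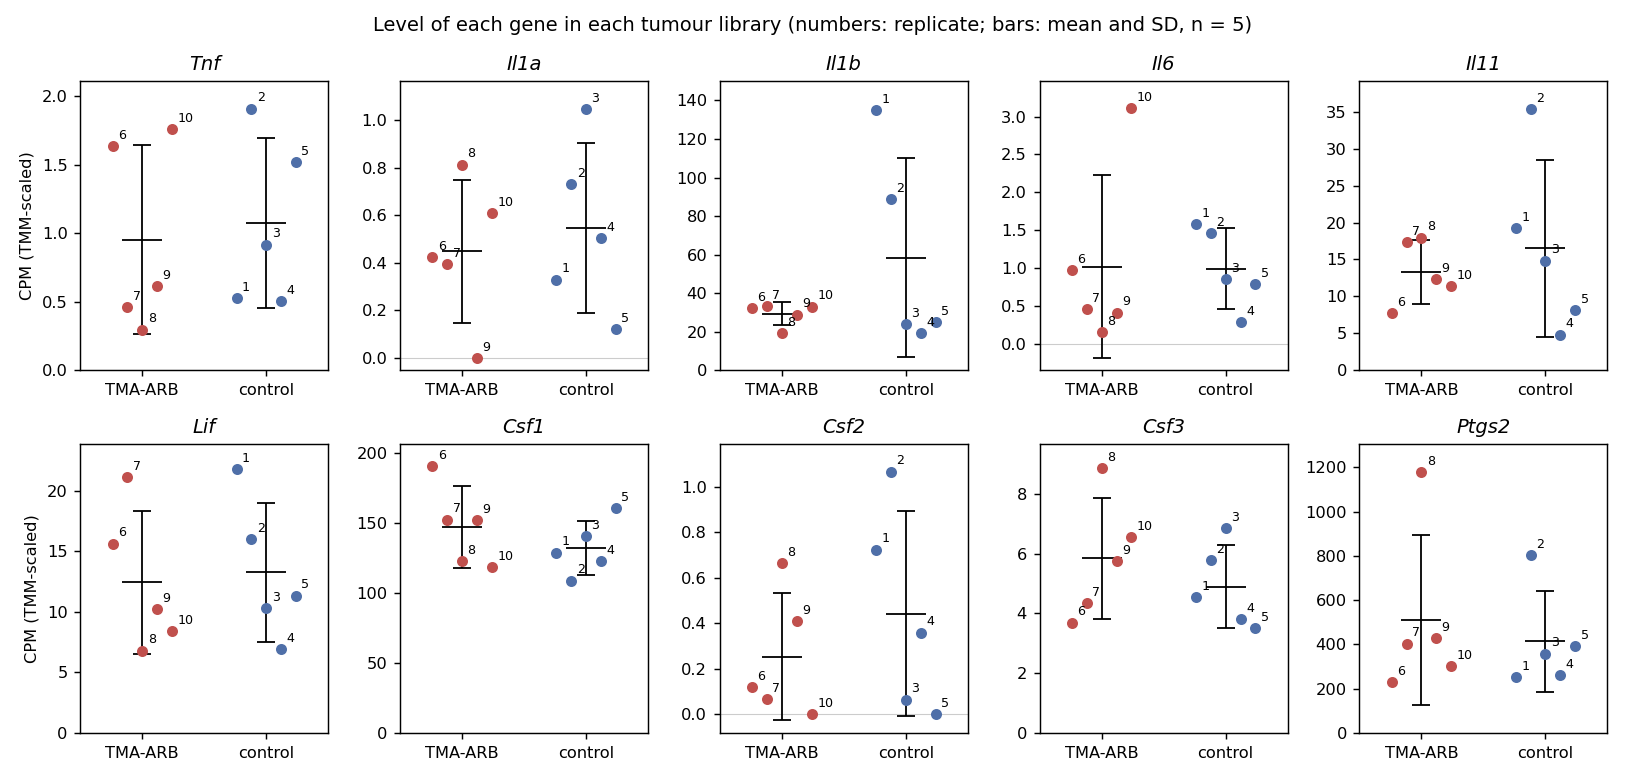
Level of each of the 10 mediators (CPM, linear axes that differ between panels) in the 5 TMA-ARB and 5 control libraries, numbered by replicate, with bars for the mean and SD. Control replicates 1 and 2 hold 135 and 88.9 CPM of Il1b, against 19.3 to 33.3 CPM in the other 8 libraries, Ptgs2 was highest in TMA-ARB replicate 8 and control replicate 2, and the groups overlap in every panel.

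To order the mediators, CPM was divided by the kilobases of exon that GENCODE release M21 annotates for each gene. Per kilobase, the level of Ptgs2 was 111 ± 83.7 CPM in TMA-ARB tumours and 90.2 ± 49.4 CPM in control tumours (SD, n = 5 each), the highest of the 10. Its lowest library (50.5 CPM per kilobase) lay above the highest library of Csf1, the next in order (36.2 CPM per kilobase). Csf1 lay above Il1b in 8 of 10 libraries and Il1b above Il11 in 10 of 10, although in both pairs the ranges over libraries overlapped. Il11 exceeded Csf3 in 9 of 10 libraries, and Csf3 and Lif were not separated (Csf3 higher in 6 of 10). Lif was above Tnf in all 10 libraries with no overlap of the ranges. The 4 scarcest, Tnf, Csf2, Il6 and Il1a, averaged 0.618, 0.434, 0.414 and 0.252 CPM per kilobase over the 10 libraries, and no neighbours in that order differed beyond their spread.

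Among the proinflammatory cytokines, Il1b was the abundant one and had the fold change farthest from 0 of the 8 mediators tested. Il1b (chromosome 2, 129364570 to 129371139, GRCm38), which encodes the inducible IL1 made mostly by myeloid cells, measured 32.2, 33.3, 19.4, 28.9 and 33.0 CPM in TMA-ARB replicates 6 to 10. In control replicates 1 to 5 it measured 135, 88.9, 23.8, 19.3 and 25.1 CPM. Control replicates 1 and 2 stood alone; the other 3 controls lay between 19.3 and 25.1 CPM, inside or just under the TMA-ARB range. All 5 TMA-ARB libraries lay under the control mean, and the log2 fold change was -0.99 ± 0.52 (SE; 95% interval -2.14 to 0.15; edgeR unadjusted p = 0.0828). Without control replicate 1 it was -0.42, and without control replicate 2 it was -0.79. With both left out it turned to 0.37; they were noticed for their high values, so leaving them out moves the value upward by construction. With the mitochondrial share as a covariate it was -0.34.

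Markers of the cells that make IL1B were set beside it. The summed level of 8 neutrophil markers was 244, 861, 191, 184 and 204 CPM in TMA-ARB replicates 6 to 10, against 695, 291, 183, 198 and 145 CPM in control replicates 1 to 5. Mmp9, which other cells also make, held 608 of the 861 CPM in TMA-ARB replicate 7 and 345 of the 695 CPM in control replicate 1. Without Mmp9 the sum of the other 7 was 77.0, 253, 180.2, 166 and 170.2 CPM in TMA-ARB replicates 6 to 10, against 350.1, 262, 139, 176 and 106 CPM in control replicates 1 to 5. Without Mmp9 the sum was thus highest in the controls in which Il1b was highest, but the list was drawn up with Mmp9 in it. With all 8 markers the sum was highest in TMA-ARB replicate 7. Without Mmp9 that library, at 253 CPM, lay near control replicate 2, at 262 CPM. Their Il1b was 33.3 and 88.9 CPM. Ly6g was at 0 in 2 TMA-ARB and 2 control libraries. The sum of 8 macrophage and monocyte markers ran from 272 to 1114.6 CPM under TMA-ARB and from 604 to 976 CPM in controls. It was 976 and 869 CPM in control replicates 1 and 2. In TMA-ARB replicates 6 and 7, whose Il1b was 32.2 and 33.3 CPM, this sum was higher, at 1114.6 and 1001.8 CPM. Of single markers, 6 of 8 macrophage and monocyte and 5 of 7 tested neutrophil genes had lower values under TMA-ARB, 0 of them called, and the part of these cells in the Il1b difference was not tested.

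Tnf and Il1a were near the detection limit. Tnf (chromosome 17, 35199381 to 35202007), the cytokine that gives its family the name, measured 1.64, 0.461, 0.295, 0.615 and 1.76 CPM in TMA-ARB replicates 6 to 10, against 0.526, 1.91, 0.915, 0.502 and 1.52 CPM in control replicates 1 to 5. These levels rest on 4 to 34 counts per library, high and low libraries occurred in both groups, and the log2 fold change was -0.17 ± 0.65 (95% interval -1.57 to 1.24). It turned positive when control replicate 2 (0.14), TMA-ARB replicate 7 (0.02) or TMA-ARB replicate 8 (0.07) was left out and was 0.08 with the mitochondrial share as a covariate. Il1a (chromosome 2, 129299610 to 129309972), an IL1 held at the membrane and inside cells, measured 0.424, 0.395, 0.813, 0 and 0.608 CPM in TMA-ARB replicates 6 to 10, against 0.329, 0.729, 1.05, 0.502 and 0.121 CPM in control replicates 1 to 5. The count of 0 in TMA-ARB replicate 9 allows up to 0.308 CPM, for counting error only. Il1a did not pass the low-count filter, and its mean log2 CPM differed by -0.29 (two-sided exact permutation test p = 0.643), by -0.56 with a prior count of 0.5 in place of 2, and by 0.18 without TMA-ARB replicate 9.

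Both receptors of TNF had lower mean levels in TMA-ARB tumours, by margins that passed no adjusted test. Tnfrsf1a, the widely expressed TNF receptor with a death domain, averaged 93.2 ± 14.4 CPM in TMA-ARB tumours and 123 ± 16.9 CPM in control tumours (SD, n = 5 each; log2 fold change -0.40 ± 0.17, unadjusted p = 0.0313 in edgeR). Tnfrsf1b, the TNF receptor of immune and endothelial cells, averaged 51.0 ± 18.4 CPM in TMA-ARB tumours and 83.5 ± 29.4 CPM in control tumours (-0.71 ± 0.29, unadjusted p = 0.0305). For both, all 5 TMA-ARB libraries lay under the control mean, and neither passed the adjusted test. For Tnfrsf1b that mean was raised by control replicates 1 and 2 (113 and 118 CPM). The other controls, at 56.2 to 66.5 CPM, also lay under it, and TMA-ARB replicate 6, at 74.7 CPM, lay above them. Of 8 genes of TNF reception, 6 were lower, 2 were higher and 0 were called. Of 12 genes of IL1 reception and processing, 5 were lower, 7 higher and 0 called. Il1rn, the secreted antagonist of the IL1 receptor, averaged 14.6 ± 5.51 CPM in TMA-ARB tumours and 30.4 ± 24.2 CPM in control tumours. Like Il1b it was highest in control replicates 1 and 2 (42.6 and 66.8 CPM). Il1r2, the decoy receptor for IL1, averaged 9.37 ± 3.97 CPM in TMA-ARB tumours and 13.2 ± 8.11 CPM in control tumours, again with its highest values, 23.7 and 19.9 CPM, in those 2 controls.

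**Figure D2:**
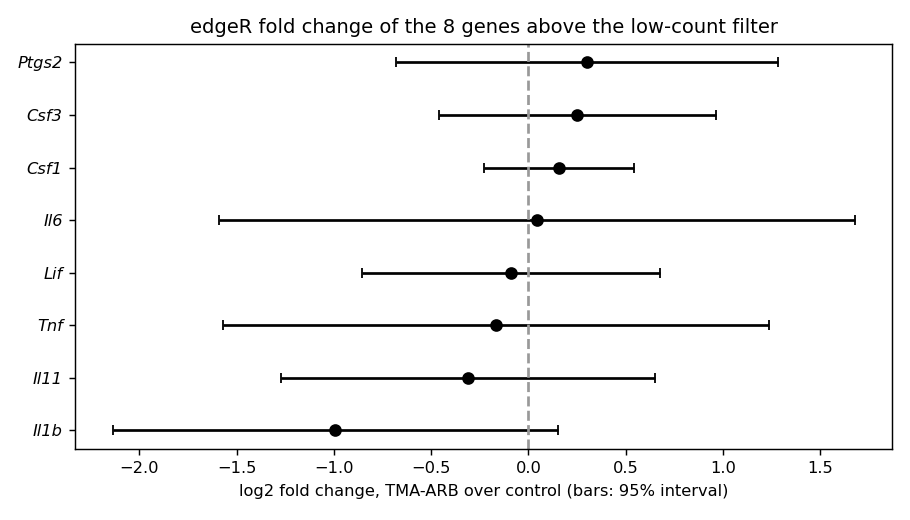
Log2 fold change, TMA-ARB over control, of the 8 mediators above the low-count filter, with 95% intervals from edgeR (horizontal axis in log2 units). All 8 intervals include 0; Csf1 has the narrowest, from -0.23 to 0.54, and Il6 and Tnf the widest.

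Of the IL6 family, Il11 and Lif were well measured and Il6 was scarce. Il11 (chromosome 7, 4772373 to 4782859), a stromal and epithelial activator of STAT3, measured 7.69, 17.3, 17.9, 12.3 and 11.4 CPM in TMA-ARB replicates 6 to 10. In control replicates 1 to 5 it measured 19.2, 35.4, 14.8, 4.81 and 8.19 CPM. The controls enclosed the whole TMA-ARB range, with control replicate 2 highest and control replicate 4 lowest of all 10. The log2 fold change of -0.31 ± 0.44 (95% interval -1.27 to 0.65) turned to 0.18 without control replicate 2. It was 0.01 with the mitochondrial share as a covariate. Control replicates 1 and 2 held the most Il11, so leaving both out moves the value upward by construction, here to 0.52.

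Lif (chromosome 11, 4257557 to 4272514), named for inhibiting leukaemia cell growth and active on stem cells and fibroblasts, measured 15.6, 21.1, 6.80, 10.3 and 8.38 CPM in TMA-ARB replicates 6 to 10. In control replicates 1 to 5 it measured 21.8, 16.0, 10.3, 6.89 and 11.3 CPM. Each group held high and low tumours, and the log2 fold change was -0.09 ± 0.36 (95% interval -0.86 to 0.67). It turned positive when control replicate 1 (0.16), TMA-ARB replicate 8 (0.07) or TMA-ARB replicate 10 (0.03) was left out, and was 0.39 without both control replicates 1 and 2. Il6 (chromosome 5, 30013114 to 30019981), a driver of the acute-phase response, measured 0.969, 0.461, 0.148, 0.410 and 3.11 CPM in TMA-ARB replicates 6 to 10, against 1.58, 1.46, 0.850, 0.287 and 0.789 CPM in control replicates 1 to 5. TMA-ARB replicate 10 held 46 of the 155 Il6 counts and TMA-ARB replicate 8 held 2. The log2 fold change was 0.05 ± 0.76 with all libraries (95% interval -1.59 to 1.68) and -0.96 without TMA-ARB replicate 10. It was also negative without control replicate 3 (-0.0076), 4 (-0.18) or 5 (-0.03). It was 0.24 with the mitochondrial share as a covariate and 0.66 without both control replicates 1 and 2.

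Among 11 tested genes of IL6-family reception, other ligands and feedback, 7 were lower, 4 higher and 0 called. Osm, which encodes oncostatin M, a family member made by myeloid cells, averaged 2.48 ± 1.46 CPM in TMA-ARB tumours and 6.12 ± 3.66 CPM in control tumours (SD, n = 5 each; log2 fold change -1.30 ± 0.50, unadjusted p = 0.0218 in edgeR). It was highest in control replicates 1 and 2, at 11.3 and 8.30 CPM, and did not pass the adjusted test.

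The colony-stimulating factors differed widely in level. Csf1 (chromosome 3, 107741048 to 107760469), the macrophage growth factor, measured 191, 153, 123, 152 and 118 CPM in TMA-ARB replicates 6 to 10, against 129, 109, 141, 123 and 161 CPM in control replicates 1 to 5. It was the steadiest of the 10, with a coefficient of variation of 17.6% over all libraries; the median gene of at least 1 CPM had 29.1%. The log2 fold change was 0.16 ± 0.18 (95% interval -0.23 to 0.54). Csf3 (chromosome 11, 98701263 to 98703629), which drives the production of neutrophils, measured 3.69, 4.34, 8.86, 5.74 and 6.55 CPM in TMA-ARB replicates 6 to 10, against 4.54, 5.78, 6.87, 3.80 and 3.52 CPM in control replicates 1 to 5. TMA-ARB replicate 8 was the highest, and the log2 fold change of 0.25 ± 0.33 was 0.05 without it and 0.03 with the mitochondrial share as a covariate.

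Csf2 (chromosome 11, 54247271 to 54249667), a growth factor of granulocytes, macrophages and dendritic cells, held 52 counts in all. It measured 0.121, 0.0658, 0.665, 0.410 and 0 CPM in TMA-ARB replicates 6 to 10, against 0.723, 1.07, 0.0654, 0.359 and 0 CPM in control replicates 1 to 5. The 2 counts of 0 allow up to 0.203 CPM in TMA-ARB replicate 10 and 0.182 CPM in control replicate 5. Csf2 did not pass the low-count filter, and its mean log2 CPM differed by -0.44 (two-sided exact permutation test p = 0.595; the smallest p the design allows is 0.00794). Of 8 tested genes of receptors and other ligands of this class, 6 were lower, 2 higher and 0 called. Csf2rb2, the IL3 receptor chain found in mice, averaged 11.6 ± 3.28 CPM in TMA-ARB tumours and 18.0 ± 7.12 CPM in control tumours (log2 fold change -0.64 ± 0.29, unadjusted p = 0.0449 in edgeR). It is a near copy of Csf2rb, so the division of reads between them is uncertain.

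Ptgs2 (chromosome 1, 150100031 to 150108227) was the highest of the 10 per kilobase of exon and varied widely between tumours. It measured 231, 404, 1180.2, 427 and 303 CPM in TMA-ARB replicates 6 to 10. In control replicates 1 to 5 it measured 251, 803, 359, 261 and 392 CPM. A single library in each group, TMA-ARB replicate 8 and control replicate 2, stood far above the others, which all lay between 231 and 427 CPM. The log2 fold change was 0.30 ± 0.45 (95% interval -0.68 to 1.28), -0.28 without TMA-ARB replicate 8, 0.69 without control replicate 2 and 0.20 with the mitochondrial share as a covariate.

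Of 8 tested genes of prostaglandin synthesis, breakdown and reception, 5 were lower, 3 higher and 0 called. Ptger1, a receptor for prostaglandin E, averaged 8.80 ± 3.19 CPM in TMA-ARB tumours and 13.4 ± 3.78 CPM in control tumours (log2 fold change -0.61 ± 0.29). Its counts are uncertain where the strand setting is not known. Ptges3, a chaperone partner also described as a prostaglandin E synthase, averaged 441 ± 103 CPM in TMA-ARB tumours and 340 ± 60.5 CPM in control tumours (0.37 ± 0.21), and its counts are uncertain because processed copies of the gene exist. Neither reached an unadjusted p under 0.05 (0.0571 and 0.0913 in edgeR).

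Genes upstream and alongside the mediators were read from 4 further lists. Of 10 NF-kB subunits and inhibitors, 7 were lower, 3 higher and 0 called, with a median of -0.00469. Rel, a lymphoid and myeloid subunit, had a log2 fold change of -0.51 ± 0.27, and Nfkbia, the feedback inhibitor of NF-kB, 0.25 ± 0.27. The 8 factors that control the decay of cytokine mRNAs were divided evenly, 4 lower and 4 higher with 0 called. Zfp36, whose protein tristetraprolin binds and destabilises Tnf and other cytokine mRNAs, averaged 32.2 ± 7.52 CPM in TMA-ARB tumours and 49.2 ± 18.1 CPM in control tumours (log2 fold change -0.61 ± 0.26, unadjusted p = 0.0348 in edgeR).

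The 8 tested chemokines induced with these cytokines also divided 4 and 4, with a median of -0.38 and 0 called. Cxcl3, a neutrophil attractant, averaged 6.91 ± 3.52 CPM in TMA-ARB tumours and 16.5 ± 12.6 CPM in control tumours (-1.26 ± 0.57, unadjusted p = 0.0473 in edgeR). Its highest libraries were control replicates 1 and 2, with 34.0 and 24.6 CPM. Of 12 immediate early genes, 10 were lower, 2 higher and 0 called. Fos, a subunit of AP-1, measured 15.0, 18.0, 30.9, 13.8 and 13.9 CPM in TMA-ARB replicates 6 to 10, against 62.9, 34.7, 33.0, 21.95 and 30.8 CPM in control replicates 1 to 5 (-1.0 ± 0.30, unadjusted p = 0.00490 in edgeR). The groups overlapped through TMA-ARB replicate 8 and controls 4 and 5. Over the 9 lists together, 54 of 85 genes were lower and 31 higher, with a median of -0.14. EdgeR called 0 of the 85 and DESeq2 0; 7 of the 85 (8.24%, beside 3.25% of all genes tested) had an unadjusted p under 0.05 in edgeR (10 in DESeq2), all 7 lower. In 6 of these 7, control replicates 1 and 2 were the highest libraries of the 10, Tnfrsf1a being the exception. These controls were noticed for their high values, so leaving them out moves genes in which they are high upward by construction. It also leaves fewer controls. Without control replicates 1 and 2, 45 of the 85 were lower and 40 higher, with a median of -0.02 (44.4% of all genes tested were lower). EdgeR then called 0, and 1, Zfp36l1, another decay factor, had an unadjusted p under 0.05, beside 1.27% of all genes tested. Of the epithelial markers given above 4 were higher and 1 lower, Epcam being high in TMA-ARB replicate 6 alone. The 85 list genes together had a median of -0.14 with all libraries. Not every list lay low: that of IL1 reception and processing had a median of 0.07 and that of decay factors 0.0051. The part of cell composition was not tested. The lists were drawn up with earlier results of these data known, so their counts are descriptions.

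**Figure D3:**
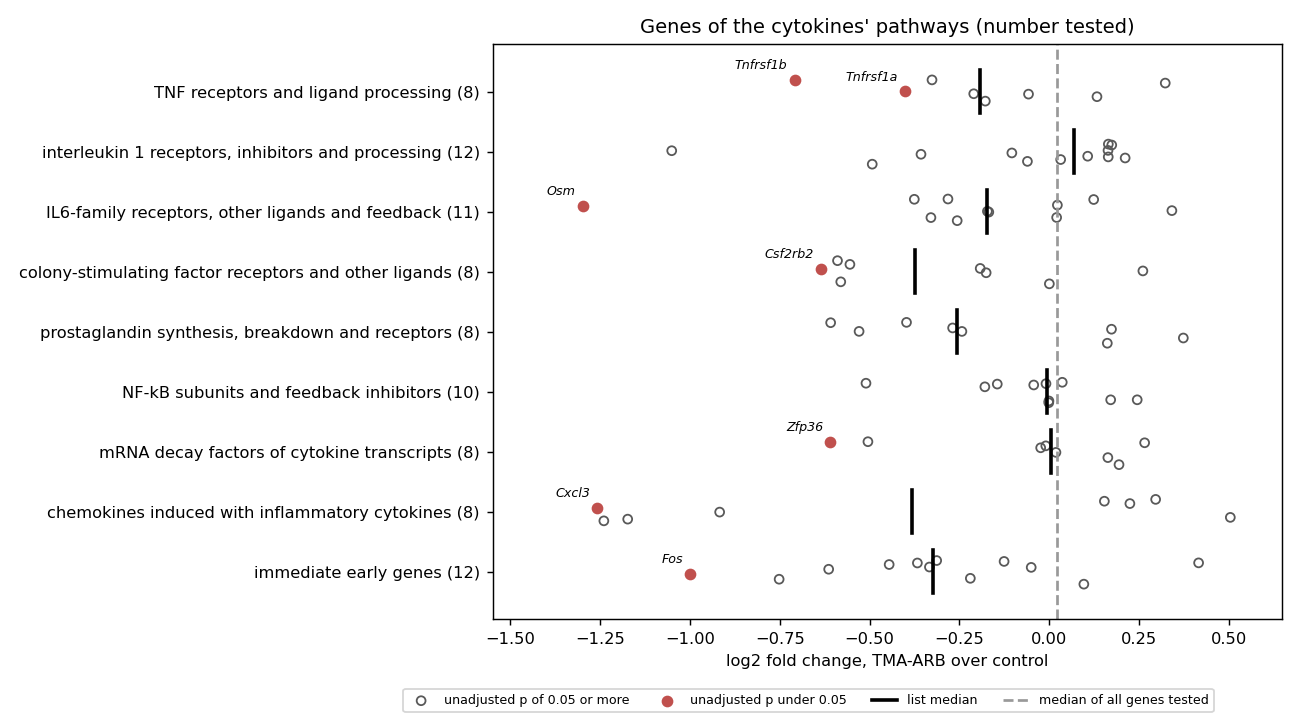
Log2 fold change, TMA-ARB over control (horizontal axis), of every tested gene in 9 lists around the mediators. Filled points are the 7 genes at an unadjusted p under 0.05, vertical bars the list medians, and the dashed line the median of all genes tested (0.02); all filled points lie left of it and none passed the adjusted test.

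Lif was high in tumours with a low mitochondrial share, in both groups. In the 5 libraries with a share under 5% (2 TMA-ARB, 3 control) Lif ran from 11.3 to 21.8 CPM. In the 5 above 5% (3 TMA-ARB, 2 control) it ran from 6.80 to 10.3 CPM. The line at 5% was drawn after the values were seen, and the share of all genes that part at it is not given. In the edgeR fit that held both treatment and the log2 mitochondrial share, Lif fell by 0.42 ± 0.12 (SE) on the log2 scale with each doubling of the share (edgeR adjusted p = 0.0247 over all genes). Of all genes, 17.4% were called for that term, and of the 8 mediators Lif alone was (1 of 8). The mediators were thus called for the share no more often than genes at large. The call was lost without control replicate 1 (-0.38, adjusted p = 0.0530) or TMA-ARB replicate 7 (-0.36, adjusted p = 0.0684), the 2 tumours with the most Lif. Without TMA-ARB replicate 9, the library with the highest share, the value was -0.63 (adjusted p = 0.0122). In that fit the treatment effect on Lif was 0.32, and Il1b had a share term of -0.42 ± 0.24 that did not pass (adjusted p = 0.276). The macrophage and monocyte sum was also high in the low-share tumours (720 to 1114.6 CPM) and lower in the others (272 to 694 CPM); its part in the Lif level was not tested.

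**Figure D4:**
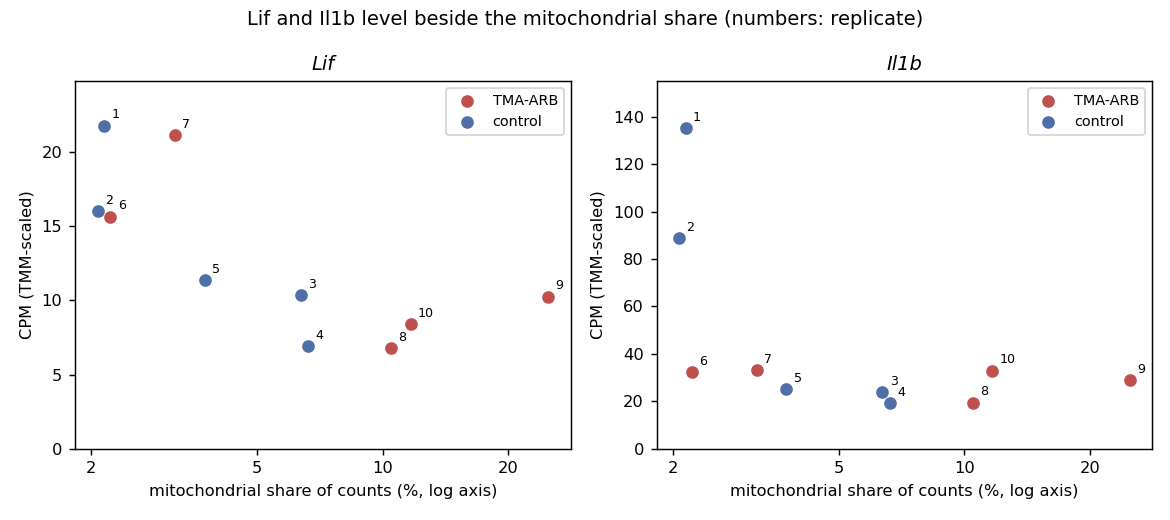
Level of Lif and Il1b (CPM) against the mitochondrial share of counts (percent, log axis) in each library, numbered by replicate. Tumours under 5%, a line drawn after the values were seen, hold 11.3 to 21.8 CPM of Lif. Those above hold 6.80 to 10.3 CPM in both groups, while Il1b is high in control replicates 1 and 2 alone.

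The genes whose pattern over the 10 libraries was most like each mediator's, with the group means removed, were found among 13476 genes of at least 1 CPM. Nearest to Ptgs2 were Soat1 (Pearson r = 0.98), which esterifies cholesterol, Map2k1 (0.98), a kinase of the ERK pathway, and Lrig2 (0.96). Soat1 had its highest values in the same libraries as Ptgs2, 170.1 CPM in TMA-ARB replicate 8 and 169 CPM in control replicate 2, against 99.8 to 123 CPM in the other 8. Nearest to Lif were Rcan1 (0.97), an inhibitor of calcineurin, Mrs2 (0.96), a mitochondrial magnesium channel, and Abcc4 (0.96), an efflux transporter. Il1b was nearest to Cd40 (0.92), a costimulatory receptor of antigen-presenting cells, Clec7a (0.90), the myeloid beta-glucan receptor dectin-1, and Tspan13 (0.89). Il11 was nearest to Npr3 (0.93), the natriuretic peptide clearance receptor, Dll4 (0.91), a Notch ligand of endothelium, and the chemokine Cxcl2 (0.91). Csf3 was nearest to Wisp2 (0.96), a matricellular protein, Olfr56 (0.94) and Bbs4 (0.94), a subunit of the ciliary BBSome. Csf1 was nearest to Ncaph (0.94), a condensin subunit, Lnx2 (0.93), a ubiquitin ligase, and Nup107 (0.92), a nuclear pore protein. The scarce genes had Arap3 in common, with r = 0.96 for Il6 and 0.84 for Tnf; Nod1 (0.91), a sensor of bacterial peptidoglycan, and Rnf135 (0.90), a ubiquitin ligase, followed for Il6. Zfp106 (0.89) and Rptor (0.87), a subunit of the kinase complex mTORC1, led for Tnf. Among the mediators themselves, 8 were compared in pairs, and the pairs farthest from 0 were Il1b with Lif (r = 0.75), Tnf with Il6 (0.73), Csf1 with Csf3 (-0.67), Csf3 with Ptgs2 (0.65), Il1b with Il11 (0.64) and Il11 with Ptgs2 (0.62). These are likenesses of pattern in 10 libraries that share depth and composition, searched over many genes, and carry no test.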

How the data were processed

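RNA of 10 MCa-M3C tumours was measured by poly-A selected RNA-seq with directional libraries, per the labels' protocols. The authors deposited estimated counts per gene; Salmon and mm10 were used, per the submitters' processing notes. For its version, annotation and strand setting, not given in the sources used here, nothing was assumed. Every value was whole (0 were not), so rounding changed none. Groups came from the sample titles, and 0 columns were unmatched.

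EdgeR 4.0.16 in R 4.3.3 was the test: TMM scaling, default low-count filter, robust quasi-likelihood F test, Benjamini-Hochberg adjustment over 14063 genes, threshold 0.05. The standard error was the absolute log2 fold change over the square root of F, and 95% intervals used the fit's degrees of freedom. Genes below the filter had an exact permutation test of mean log2 CPM (prior count 2, 252 arrangements). A count of 0 was taken to allow 3 counts, for counting error alone. The procedure was tested on simulated data. Gene coordinates and exon lengths came from GENCODE M21 (GRCm38, the assembly of mm10), which need not be the annotation counted, and promoters from RefSeq. Adgre1 was matched by its Ensembl identifier. Figures used matplotlib 3.10.9.

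The genes and lists were chosen with earlier results of these data known. From each list the text names up to 4 genes at an unadjusted p under 0.05, or the 2 of smallest p. For genes of at least 1 CPM it names the 3 of most similar pattern. Alternatives were DESeq2 1.42.0, RLE scaling, no filter, a threshold of 0.10, a prior count of 0.5, the mitochondrial share as a covariate, its genes left out, and each library left out. Leaving out control replicates 1 and 2 together was added after the data had been seen. So was the test of the share term.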

Additional observations from a re-analysis of the deposited data

Results flagged for a closer look

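The level of a single library stood far from the others of its group in 3 of the 20 gene and group combinations. The measure was the gap to its nearest neighbour over the range of the group. Values drawn from a normal distribution give such a gap in about 1 in 20 groups. CPM values need not follow that distribution, so the rate by chance here is not known. Ptgs2 was at 1180.2 CPM in TMA-ARB replicate 8, with the other TMA-ARB libraries at 231 to 427 CPM. Ptgs2 was at 803 CPM in control replicate 2, with the other controls at 251 to 392 CPM. Il6 was at 3.11 CPM in TMA-ARB replicate 10, from 46 counts, with the other TMA-ARB libraries at 0.148 to 0.969 CPM.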

How the results depend on the processing

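No setting tried called any of the 10 genes. Over all genes, DESeq2 called 2 where edgeR called 0; RLE scaling, no low-count filter, an adjusted p under 0.10, the mitochondrial covariate, the mitochondrial genes left out each library left out, and control replicates 1 and 2 left out together (chosen after the data had been seen) called 0. With the mitochondrial share as a covariate the log2 fold change turned positive for Il11 (0.0081), Lif (0.32) and Tnf (0.077), and was 0.03 for Csf3. Without control replicates 1 and 2 together it turned positive for Il11 (0.52), Il1b (0.37) and Lif (0.39). The list genes at an unadjusted p under 0.05 in edgeR then numbered 1 where 7 did with all libraries. Those controls were noticed for their high values, so these changes follow in part by construction. With 1 library left out, fold changes ran from -0.54 to 0.18 for Il11, -0.36 to 0.16 for Lif, -0.49 to 0.14 for Tnf, -0.96 to 0.33 for Il6 and -0.28 to 0.69 for Ptgs2. The difference in mean log2 CPM of Il1a ran from -0.60 to 0.18, and was -0.56 with a prior count of 0.5. These 6 genes changed sign there, and the cause was not tested. Il1b (-1.21 to -0.42), Csf1 (0.05 to 0.23), Csf3 (0.05 to 0.40) and the Csf2 difference (-0.85 to -0.06) kept theirs with any 1 library left out. The Lif share term ran from -0.63 to -0.36. It was -0.43 with the mitochondrial genes left out and lost its call without control replicate 1 or TMA-ARB replicate 7. No paired analysis was possible because no replicate number is shared between the groups. Depth limits Tnf, Il6, Il1a and Csf2, with at most 46 counts in any library.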

Other observations

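Control replicates 1 and 2 were the pair of highest libraries for Il1b and Il11 (2 of the 8 genes tested) and for 14 of the 85 genes of the lists (16.5%), against 3.73% of all genes tested. The 14 were Il1rn, Il1r2, Nlrp3, Osm, Csf2rb, Csf2rb2, Csf3r, Cxcl2, Cxcl3, Ptges, Tnfrsf1b, Zfp36, Fos and Nr4a1. This count was chosen after the values were seen and has no test. These libraries had the lowest mitochondrial shares of all (2.15% and 2.07%), with TMA-ARB replicate 6 next at 2.22%. The mast cell marker sum was 8.31 to 49.7 CPM in TMA-ARB tumours, 53.1 and 36.5 CPM in control replicates 1 and 2, and 13.8 to 16.7 CPM in the other controls. The T cell marker sum was 5.66 to 13.6 CPM in TMA-ARB tumours, 17.0 and 15.7 CPM in control replicates 1 and 2, and 10.3 to 12.7 CPM in the other controls. The part of these cells was not tested.

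Il1rl1, the receptor for IL33, was named after its values were seen. It stood at 2228.2 to 5191.6 CPM in TMA-ARB tumours and 2550.7 to 3895.3 CPM in control tumours. Its ligand gene, Il33, averaged 3.63 ± 5.57 CPM in TMA-ARB tumours and 3.26 ± 1.83 CPM in control tumours (SD, n = 5 each).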
